A study of Mus musculus with 42 samples.

Results

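The comparison set hippocampal against cortical tissue of embryonic mice, over every array of embryonic brain tissue in a study of the *Fmr1* knockout. All 12 arrays titled hippocampus and all 10 titled cortex were taken, 22 of the 42 arrays, and the other 20 arrays came from neurons cultured for 14 days in vitro. Hippocampus was represented by 6 *Fmr1*KO and 6 wild-type (WT) arrays and cortex by 5 *Fmr1*KO and 5 WT arrays. The mice were untreated C57BL/6 embryos of 17 to 18 days post-conception, and each array held total RNA pooled from littermates and so did not stand for a single embryo. A mouse ID was read as 1 litter, which the labels do not state in words. The knockout is constitutive, and no line or allele beyond *Fmr1* was named. A mouse ID marked the hippocampus and the cortex array of 10 pools, and the IDs KO 4237 and WT 3104 had hippocampus alone. RNA was hybridised to whole-genome mouse expression arrays of Affymetrix, and all levels given below are log2 signals, on which a difference of 1 is a 2-fold change. Each gene was read through its probe with the highest mean, and levels were not compared between genes because probes differ in brightness.

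The hippocampus arises from the medial edge of the dorsal telencephalon, next to the cortical hem and the choroid plexus. The hem secretes Wnt and BMP proteins, which pattern the neighbouring medial pallium, and medial pallial cells read the Wnt signal through beta-catenin and transcription factors of the LEF and TCF family. The neocortex lies further lateral, and at this age its neurons are sorting into layers that are recognised by transcription factors such as Rorb, Cux2, Foxp2 and Bcl11b, while granule neurons of the hippocampal dentate gyrus, marked by Prox1, are still being born. Bulk tissue does not separate fewer cells of a type from less RNA per cell, and the regional differences below are open to both readings.

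*Fmr1*, the targeted gene, read 8.93 ± 0.05 in KO and 9.92 ± 0.06 in WT cortex (SD, n = 5 each) and 9.0 ± 0.10 in KO and 9.93 ± 0.11 in WT hippocampus (SD, n = 6 each), with no overlap between genotypes, as the labels have it. Arrays of one region correlated at 0.993 to 0.995 on average with the others of that region and at 0.975 to 0.985 with those of the other, and none was a duplicate. A signal of 5.06 was taken as background. It is the 95th percentile of 123 probes for olfactory receptor, vomeronasal receptor and keratin-associated protein genes. That these genes are not expressed in this tissue was assumed and not measured. Where the dimmer region lay at background, its arrays were raised to that level and the fold is given as a minimum.

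Of 18194 genes, 9045 (49.7%) differed between the regions at an adjusted p under 0.05 (limma with genotype as a covariate and mouse ID as a random block, Benjamini-Hochberg over 45037 probes). Of these, 4688 (25.8% of all genes) were higher and 4357 (23.9%) lower in hippocampus. Most differences were small, with a median size of 0.27 among the called genes and a median over all genes of -0.01. At least a 2-fold difference was reached by 689 genes (3.79%), 448 higher (2.46%) and 241 lower (1.32%) in hippocampus. Among them 681 had one sign in all 10 pairs of mouse ID and 642 had no overlap between the 12 hippocampal and 10 cortical arrays, against 13.3% of all genes without overlap. Both counts come from the arrays on which the genes were called.

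**Figure D1:**
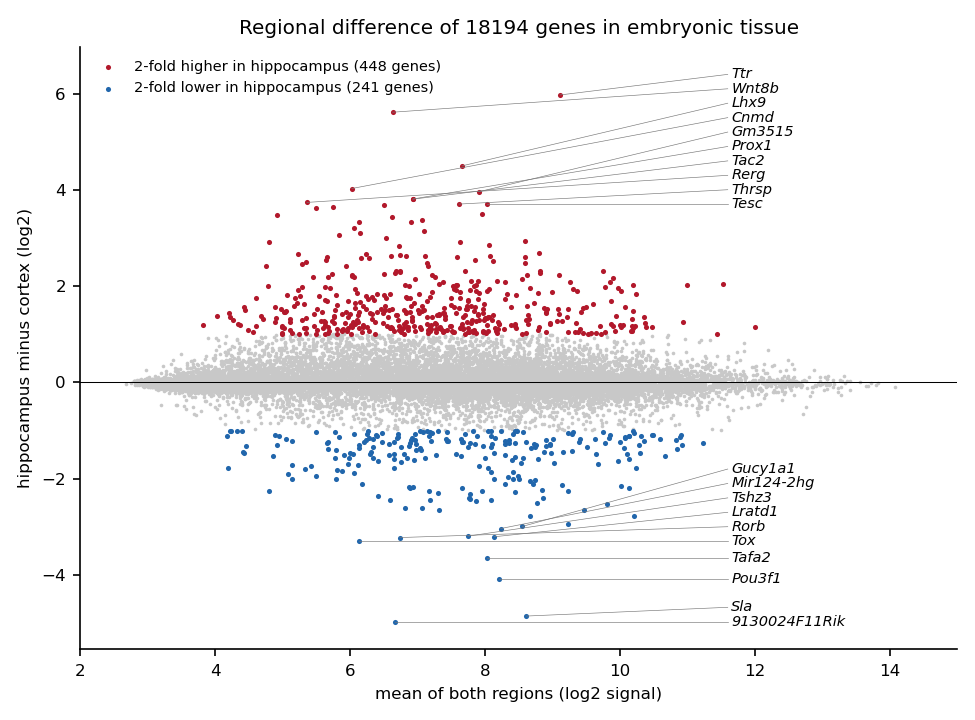
Difference between hippocampus and cortex (log2, vertical axis) against the mean of both regions (log2 signal, horizontal axis) for 18194 genes, with the 448 and 241 genes called at 2-fold in colour and the 10 named genes with the largest differences in each direction labelled. Large differences lie on both sides of 0, and more of them point to hippocampus than to cortex.

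Ligands of the cortical hem had the highest median difference of the 35 gene lists as measured, and 2 of their cortical relatives ran the other way. That rank depends on the probes kept: over members above background the median was 1.51 for astrocyte and 1.38 for Cajal-Retzius markers. Of 14 measured hem ligands 10 were higher and 2 lower in hippocampus, with a median difference of 1.14. Counts of list members, here and below, stand beside 25.8% of all genes called higher and 23.9% called lower. Those shares include genes at background. Above background in at least 1 region were 67.2% of all genes and 85.4% of the called ones. The share called is therefore higher among expressed genes, and lists made mostly of such genes stand out less than the shares over all genes show. A 2-fold difference was passed by 8 of the 10 as measured and by 6 with signals raised to background, without *Bmp6* (at least 1.24-fold) and *Bmp7* (a log2 difference of 0.99). *Wnt8b*, a Wnt ligand of the hem and medial pallium, ranged from 8.54 over a median of 9.57 to 10.52 in hippocampus and from 3.46 over 3.66 to 5.20 in cortex. The groups did not overlap and the difference was at least 21-fold (adjusted p = 2.7e-16, limma). *Rspo1*, an R-spondin that strengthens Wnt signals at the receptor, ranged from 6.51 over 7.67 to 9.01 in hippocampus and from 3.69 over 3.89 to 4.14 in cortex, at background in all 10 cortical arrays. Its difference was at least 5.82-fold, with no overlap and the same direction in 10 of 10 pairs (adjusted p = 1.7e-13, limma).

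The proximal promoters of the ligands and targets with the largest differences are shown here, because a DNA word read by LEF and TCF factors, CTTTGAT, can be looked for in them on either strand. Each run is the 250 bases before a RefSeq start site in GRCm38.p6, plus strand, 5′ to 3′, with a match in capitals. They are *Wnt8b* (chr19:44493222-44493471), *Rspo1* (chr4:124986180-124986429), *Sp5* (chr2:70474673-70474922), *Wif1* (chr10:121033754-121034003) and the first of 4 windows of *Lef1* (chr3:131110047-131110296). *Wnt5a*, also among the leading ligands, is named only.
Wnt8b: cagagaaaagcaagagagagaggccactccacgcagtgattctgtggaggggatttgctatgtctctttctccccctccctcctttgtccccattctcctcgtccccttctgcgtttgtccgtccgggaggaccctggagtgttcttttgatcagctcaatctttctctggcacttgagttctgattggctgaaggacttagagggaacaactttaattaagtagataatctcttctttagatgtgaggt
Rspo1: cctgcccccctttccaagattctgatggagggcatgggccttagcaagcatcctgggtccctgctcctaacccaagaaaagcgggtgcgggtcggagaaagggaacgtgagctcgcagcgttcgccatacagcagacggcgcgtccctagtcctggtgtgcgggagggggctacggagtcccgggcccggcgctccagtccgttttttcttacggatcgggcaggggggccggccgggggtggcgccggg
Sp5: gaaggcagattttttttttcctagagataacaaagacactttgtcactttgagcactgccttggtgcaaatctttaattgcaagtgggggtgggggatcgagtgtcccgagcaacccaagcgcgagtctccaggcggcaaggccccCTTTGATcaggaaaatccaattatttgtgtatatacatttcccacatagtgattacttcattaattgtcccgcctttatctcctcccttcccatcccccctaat
Wif1: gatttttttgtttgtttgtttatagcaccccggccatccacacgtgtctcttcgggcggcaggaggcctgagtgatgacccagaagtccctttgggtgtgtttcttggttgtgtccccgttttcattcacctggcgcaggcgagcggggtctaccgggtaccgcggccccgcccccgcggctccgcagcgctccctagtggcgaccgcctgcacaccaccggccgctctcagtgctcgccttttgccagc
Lef1: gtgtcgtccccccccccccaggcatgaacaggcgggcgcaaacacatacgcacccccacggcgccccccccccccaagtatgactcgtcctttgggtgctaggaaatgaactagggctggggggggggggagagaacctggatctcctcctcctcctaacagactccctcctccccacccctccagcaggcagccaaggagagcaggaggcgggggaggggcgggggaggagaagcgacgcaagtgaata
The word stood once among the 5 runs, in *Sp5*, starting 104 bases before the start site on the plus strand. Of 12 Wnt targets with a promoter window 2 held it, *Sp5* and *Tnfrsf19*, and of 9 hem ligands 0, beside 1005 of 27025 genes (3.72%) over the whole table. A match is a run of letters and not a measured binding site.

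*Wnt5a*, a ligand of the hem and of migrating cells, ranged from 9.43 over 10.08 to 10.26 in hippocampus and from 6.87 over 7.24 to 7.69 in cortex. It was 6.07-fold higher (2.60 ± 0.10, SE; adjusted p = 7.66e-16, limma), and no cortical array reached the lowest hippocampal one. *Rspo2*, a second R-spondin, read 9.07 to 10.61 (median 9.90) in hippocampus and 6.16 to 8.23 (median 7.42) in cortex, a 5.58-fold difference without overlap (adjusted p = 5.23e-10, limma). One of its 2 probes was called and the other was not. *Wnt3a*, the ligand by which the hem is usually defined, was dim, at 5.74 to 6.94 (median 6.22) in hippocampus against 4.73 to 5.22 (median 4.87) in cortex, and was at least 2.23-fold higher (adjusted p = 2.86e-09, limma). *Wnt9a* (1.80), *Bmp7* (1.0) and *Rspo3* (0.73) were higher as well, *Rspo3* with 1 probe called in each direction. *Bmp5* and *Wnt2b* were at background in both regions.

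The exceptions were *Wnt7a* and *Wnt7b*, ligands that cortical progenitors and neurons themselves make. *Wnt7b* ranged from 7.61 over 7.88 to 8.16 in hippocampus and from 8.30 over 8.81 to 9.03 in cortex, 1.81-fold lower in hippocampus with no overlap (adjusted p = 6.4e-10, limma). *Wnt7a* was lower by a smaller step (-0.50 ± 0.09, SE).

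Wnt targets and feedback genes followed the ligands, with 15 of 20 higher and 4 lower in hippocampus and a median difference of 1.08. *Axin2*, the negative-feedback scaffold that is a standard readout of beta-catenin activity (chromosome 11, 108917828 to 108950783), ranged from 8.17 over 8.59 to 9.05 in hippocampus and from 6.46 over 6.56 to 6.70 in cortex. The 10 cortical arrays lay close together and all below the hippocampal ones, a 4.05-fold difference (adjusted p = 9.53e-16, limma). *Sp5*, a zinc-finger target of Wnt signalling whose promoter held the word, ranged from 6.73 over 7.78 to 8.35 in hippocampus and from 4.40 over 4.53 to 5.0 in cortex, at background there, and was at least 6.31-fold higher (adjusted p = 1.21e-15, limma). *Lef1*, itself a LEF/TCF factor and a target, read 6.70 to 7.58 (median 7.18) in hippocampus and 4.72 to 5.12 (median 4.94) in cortex and was at least 4.25-fold higher (adjusted p = 8.52e-16, limma). None of these 3 genes overlapped between regions, and both probes of *Axin2* and of *Lef1* were called higher.

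Inhibitors of the pathway were split. *Wif1*, a secreted Wnt-binding inhibitor, ranged from 5.59 over 6.13 to 7.15 in hippocampus and from 3.17 over 3.32 to 3.45 in cortex and was at least 2.33-fold higher (adjusted p = 1.09e-14, limma). *Nkd1*, an intracellular feedback inhibitor, was 4.41-fold higher (7.32 to 8.62 against 5.68 to 6.08; adjusted p = 8.29e-14, limma), with 2 of its 4 probes called. *Tnfrsf19*, a receptor that is a Wnt target, was 4.26-fold higher (10.58 to 11.29 against 8.60 to 8.98; adjusted p = 1.7e-16, limma). By contrast the secreted frizzled-related protein *Sfrp1* ranged from 7.40 over 8.16 to 8.88 in hippocampus and from 9.29 over 9.59 to 9.81 in cortex, 2.72-fold lower in hippocampus in all 5 probes (adjusted p = 5.51e-10, limma). *Sfrp2* was lower by 1.06 ± 0.08 (SE). *Sfrp4* ran the other way, at 6.55 to 6.95 in hippocampus and 5.85 to 6.24 in cortex without overlap (0.63; adjusted p = 1.6e-10, limma), and *Sfrp5* differed by -0.14. So the frizzled-related inhibitors stood on both sides, while *Wif1*, *Nkd1* and *Axin2* read higher in hippocampus.

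Receptors and transducers differed less than ligands and targets, at a median of 0.16 over 25 genes, 15 higher and 3 lower. The largest difference was that of *Lef1* (2.18 as measured), which the lists of Wnt targets and of medial pallium factors hold as well. The frizzled receptors *Fzd7* (1.92), *Fzd9* (1.45) and *Fzd1* (1.38) and the R-spondin receptor *Lgr4* (0.92) were higher in hippocampus, and *Fzd8* (-0.80) was lower. *Ctnnb1*, which encodes beta-catenin, differed by only 0.14 ± 0.03 (SE). Among 20 receptors, effectors and inhibitors of BMP signalling 8 were higher and 5 lower, with a median of 0.07. *Id3*, a helix-loop-helix inhibitor that BMP signals switch on, ranged from 9.45 over 10.07 to 10.63 in hippocampus and from 6.72 over 7.18 to 7.46 in cortex, 7.66-fold apart with no overlap (adjusted p = 1.01e-15, limma). *Id1* (1.11) and *Msx1* (0.99) were higher too, whereas *Id2* (-1.25) and the receptor *Bmpr1b* (-1.49) were lower, so the members of one gene family stood on both sides.

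**Figure D2:**
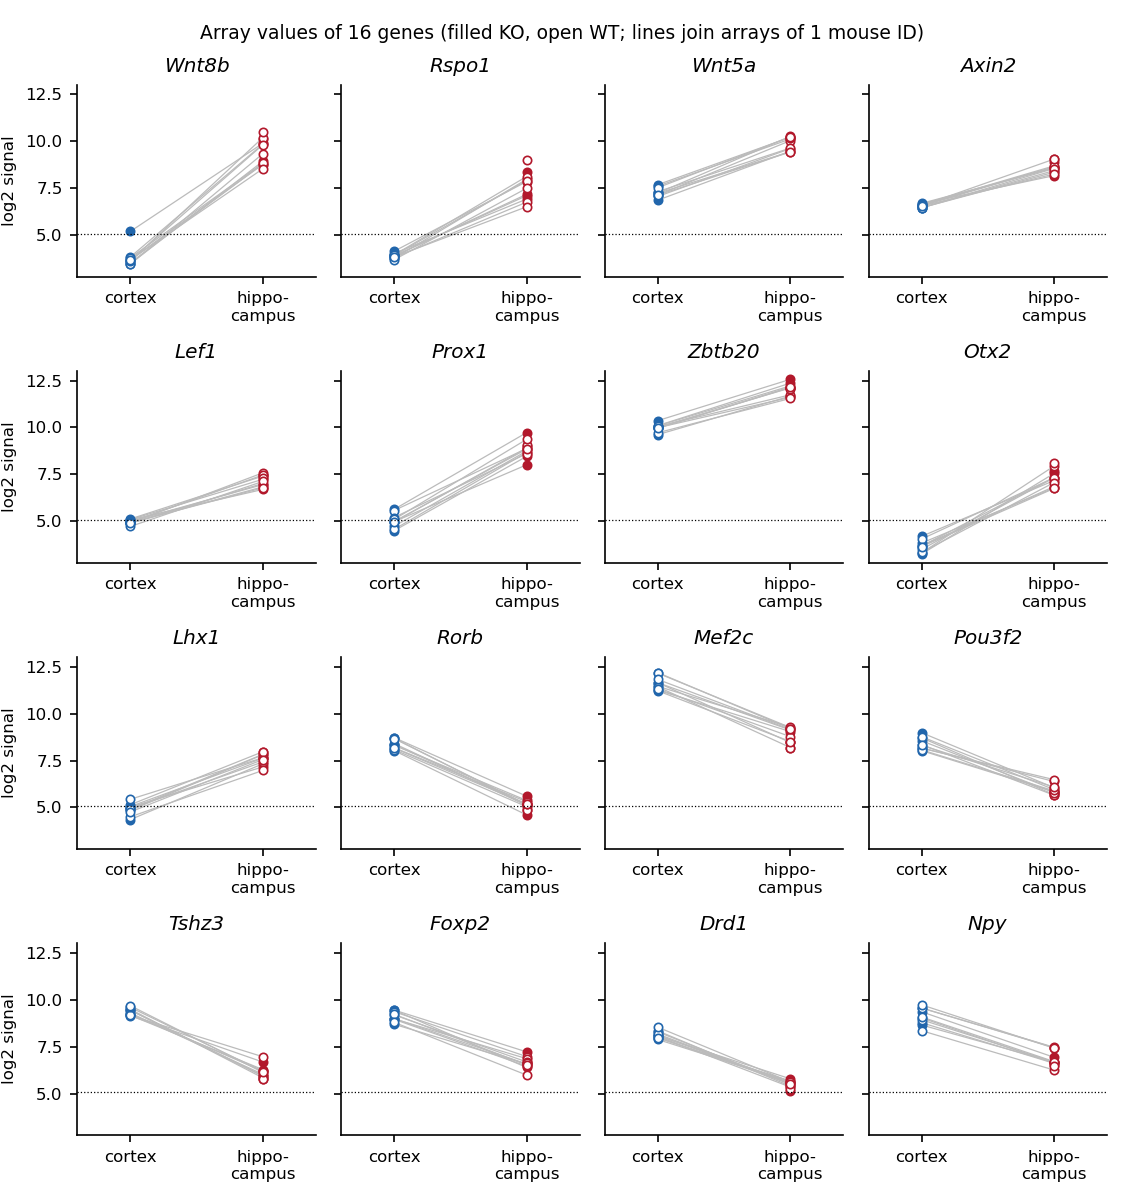
Log2 signal (vertical axis) of 16 genes in each cortex and hippocampus array, filled for *Fmr1*KO and open for WT, with lines joining arrays of 1 mouse ID and a dotted line at the background of 5.06; heights are not comparable between genes. For each of the 16 genes all hippocampal arrays lie on one side of all cortical arrays, *Wnt8b* of cortex KO 2038 (5.20) being the one cortical value of that gene above background.

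Transcription factors of the medial pallium marked the hippocampal tissue almost without exception, with 20 of 21 higher, 1 lower and a median difference of 1.0. The one lower gene, *Dmrta1*, was at background in both regions, and so was *Lmx1a* among the higher ones. *Prox1*, the factor of dentate granule neurons (chromosome 1, 190118035 to 190170827), ranged from 8.01 over 8.86 to 9.72 in hippocampus and from 4.50 over 4.98 to 5.63 in cortex, at least 12.7-fold apart (adjusted p = 1.38e-16, limma). *Emx2*, needed for growth of the hippocampus, ranged from 9.81 over 10.24 to 10.50 in hippocampus and from 7.68 over 8.02 to 8.23 in cortex, 4.69-fold apart (adjusted p = 8.19e-17, limma). The regions did not overlap for either gene, and *Emx1*, the paralogue of *Emx2*, differed by a smaller step (0.86 ± 0.06, SE).

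*Zbtb20*, a factor of hippocampal pyramidal and granule neurons, ranged from 11.54 over 12.10 to 12.56 in hippocampus and from 9.62 over 9.999 to 10.36 in cortex, 4.08-fold apart with all 9 of its probes called higher (adjusted p = 4.63e-15, limma). *Dmrt3* (2.47), *Zic1* (1.84), *Dmrta2* (1.48) and *Lhx2* (0.95) were higher along with it, and the nuclear factors *Nfia* (0.56), *Nfix* (0.39) and *Nfib* (0.23) differed least among the well expressed members. *Otx2*, a factor of the choroid plexus and of the hem (chromosome 14, 48656781 to 48667644), ranged from 6.75 over 7.32 to 8.10 in hippocampus and from 3.26 over 3.67 to 4.20 in cortex, background in all 10 cortical arrays, and was at least 4.8-fold higher (adjusted p = 1.05e-15, limma). The mean level of the whole list was 9.08 to 9.43 in the hippocampal and 7.42 to 7.90 in the cortical arrays, and within the 10 pairs hippocampus led by 1.26 to 1.75 (median 1.47), a wider gap in list level than that of the hem ligands (median 1.29).

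Markers of the mature hippocampal fields were split, with 13 of 25 higher, 7 lower and a median of 0.33. *Neurod1*, a helix-loop-helix factor of new granule neurons, ranged from 12.29 over 12.56 to 12.76 in hippocampus and from 10.25 over 10.49 to 10.69 in cortex, 4.12-fold apart with no overlap (adjusted p = 1.1e-18, limma). *Nrip3* (2.42), the mineralocorticoid receptor *Nr3c2* (1.14) and the kainate receptor *Grik4* (1.0), which mark pyramidal fields in the adult, were higher. *Mpped1* (-1.59) and *Spock1* (-1.51), markers of the adult field CA1, were lower in hippocampus than in cortex. *Nts*, the neurotensin precursor, was lower on average (-2.66 ± 0.51, SE; adjusted p = 0.000143, limma) but spread over 4.68 to 8.91 (median 5.56) in hippocampus and 5.52 to 10.70 (median 9.11) in cortex, so the regions overlapped. In the WT arrays alone *Nts* did not pass the test (-1.96, adjusted p = 0.065, limma). The mean level of the field markers still separated the regions, at 7.37 to 7.79 in the hippocampal and 6.86 to 7.26 in the cortical arrays, with hippocampus ahead in 10 of 10 pairs by 0.15 to 0.56. So the mean levels of both lists set the arrays labelled hippocampus apart, the medial pallium factors by the wider gap. The lists share *Prox1* and *Zbtb20*, so the field markers are not a separate check of the labels.

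Upper-layer genes carried the largest shift toward cortex, with 12 of 18 lower in hippocampus, 2 higher and a median of -0.84. *Rorb*, the nuclear receptor of layer 4 (chromosome 19, 18930609 to 19111196), ranged from 4.60 over 5.14 to 5.6 in hippocampus and from 8.03 over 8.33 to 8.72 in cortex, 9.37-fold lower in hippocampus (adjusted p = 2.32e-18, limma). *Mef2c*, a transcription factor of postmitotic cortical neurons, ranged from 8.16 over 8.91 to 9.28 in hippocampus and from 11.21 over 11.55 to 12.18 in cortex, 6.86-fold lower in hippocampus (adjusted p = 2.26e-14, limma). Neither gene overlapped between the regions, and all 3 probes of *Rorb* and all 5 of *Mef2c* were called lower.

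*Pou3f2*, a POU factor of upper-layer neurons and their progenitors, read 5.65 to 6.48 (median 5.86) in hippocampus and 8.03 to 8.98 (median 8.33) in cortex, 5.46-fold lower (adjusted p = 9.59e-15, limma). *Cux2*, a homeobox factor of layers 2 to 4, read 6.84 to 7.85 (median 7.40) and 9.19 to 9.68 (median 9.45), 4.06-fold lower (adjusted p = 4.61e-15, limma). With *Pou3f3* (-1.10) and *Pou3f1* (-4.09), 3 POU factors of this family were all lower in hippocampus, and *Cux1* was lower by less (-0.70, 9 of 9 probes). The 2 higher members were the ephrin receptor *Epha6*, at least 1.59-fold and dim, and *Mdga1* (0.16).

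Deep-layer genes were lower in 14 of 22 cases and higher in 6, with a median of -0.61. *Tshz3*, a zinc-finger factor of layer 5 projection neurons, ranged from 5.77 over 6.08 to 6.96 in hippocampus and from 9.14 over 9.36 to 9.68 in cortex, 9.18-fold lower (adjusted p = 1.44e-16, limma). *Foxp2*, a forkhead factor of layer 6, ranged from 5.99 over 6.61 to 7.22 in hippocampus and from 8.69 over 9.09 to 9.45 in cortex, 5.57-fold lower (adjusted p = 8.67e-16, limma). *Ldb2*, a cofactor of LIM factors in layer 5, was 5.66-fold lower (6.77 to 8.18 against 9.75 to 10.43; adjusted p = 4.8e-15, limma). All 3 genes were without overlap.

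The factors that specify subcerebral and corticothalamic neurons differed in size. *Sox5* (-2.13), *Tle4* (-1.30), *Bcl11b* (-0.98) and *Tbr1* (-0.95) were lower in hippocampus, and *Fezf2* only slightly so (-0.29 ± 0.06, SE). *Crym*, a thyroid hormone binding protein used as a layer 5 marker, ran the other way, at 10.47 to 11.43 (median 10.92) in hippocampus and 8.72 to 9.69 (median 9.04) in cortex, 3.72-fold higher (adjusted p = 9.36e-14, limma). *Mctp1* (1.18), *Pcp4* (1.08) and *Zfpm2* (0.98), also used as deep-layer markers, were higher with it. Subplate markers were mixed (4 of 14 higher, 5 lower, median -0.05), and *Nr4a2*, the best known of them, was lower (-1.37 ± 0.23, SE) with cortical arrays spread from 7.55 to 10.58.

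**Figure D3:**
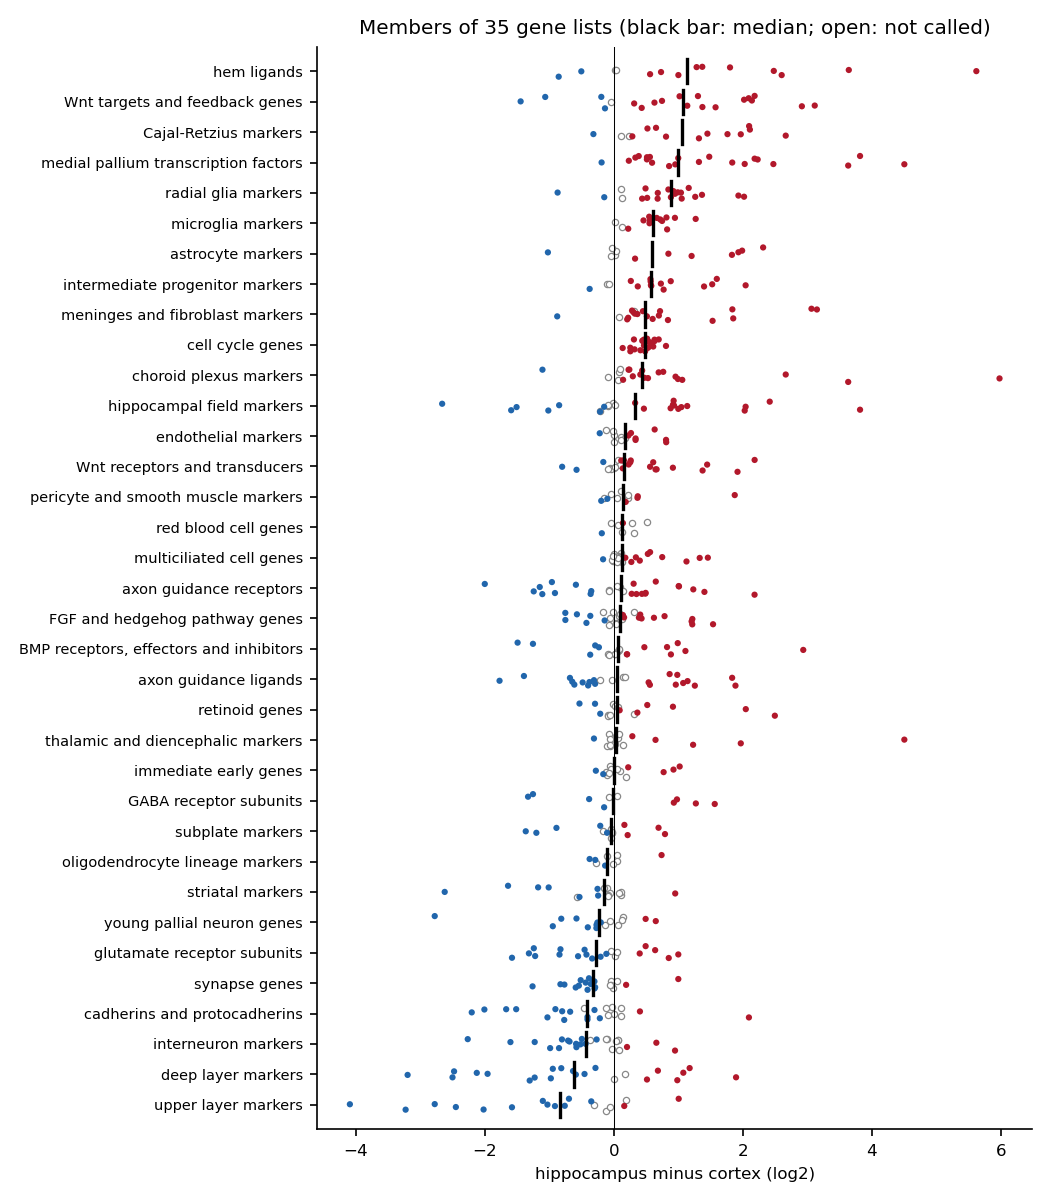
Difference between hippocampus and cortex (log2, horizontal axis) for each measured member of 35 gene lists, coloured red where called higher in hippocampus, blue where called lower and open where not called, with a black bar at the list's median. Hem ligands (median 1.14) lie at the top and upper-layer markers (median -0.84) at the bottom.

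Cajal-Retzius cells, the early reelin-secreting neurons that leave the hem for the surface of the pallium, were marked by 11 of 14 genes higher in hippocampus, 1 lower and a median of 1.06. *Lhx1*, a LIM factor of these cells, ranged from 6.97 over 7.62 to 7.97 in hippocampus and from 4.35 over 4.92 to 5.43 in cortex and was at least 5.53-fold higher (adjusted p = 7.22e-16, limma). *Trp73*, a p53 relative expressed by hem-derived Cajal-Retzius cells, ranged from 7.35 over 7.75 to 8.21 in hippocampus and from 5.43 over 6.04 to 6.28 in cortex, 3.39-fold higher (adjusted p = 1.54e-13, limma), with 1 of its 2 probes called. Both genes were without overlap. *Nhlh2* (2.10), *Calb2* (1.97) and the chemokine receptor *Cxcr4* (2.11) were higher, and *Reln* itself by less (0.81 ± 0.04, SE).

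Progenitor genes were higher in hippocampus at each stage that was listed. Radial glia markers were higher in 17 of 21 cases and lower in 2 (median 0.88), and intermediate progenitor markers were higher in 13 of 16 and lower in 1 (median 0.58). *Hopx*, a homeodomain-only protein of radial glia, ranged from 10.55 over 11.29 to 11.77 in hippocampus and from 8.85 over 9.17 to 9.63 in cortex, 4.05-fold higher without overlap (adjusted p = 7.57e-12, limma). *Sox9* (1.26), *Vim* (1.16) and *Notch1* (1.05) followed, *Pax6* (0.49) and *Nes* (0.44) were closer, and *Ptprz1* was lower (-0.87). *Eomes*, the T-box factor of intermediate progenitors, was higher by 0.88 ± 0.08 (SE). Genes of young pallial neurons leaned to cortex, with 9 of 16 lower and 2 higher (median -0.23), led after *Mef2c* by *Tbr1*, *Neurod2* (-0.82) and *Neurod6* (-0.58).

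All 24 listed cell cycle genes were called higher in hippocampus, though by small steps of 0.14 (*Mcm7*) to 0.81 (*Mcm6*), with a median of 0.48, and only 2 of them were without overlap. Their mean level was 8.94 to 9.53 in the hippocampal and 8.37 to 9.17 in the cortical arrays, and hippocampus led in 10 of 10 pairs by 0.21 to 0.84. The level varied with the mouse ID: it was 8.37 to 8.65 in cortex of KO 2037, 2038 and 4236 and of WT 3569 and NT, and 8.96 to 9.17 in the other 5 cortical arrays. An embryonic haemoglobin gene, *Hbb-y*, which falls with embryonic age, followed the same IDs in cortex, at 3.72 to 4.93 in KO 2037 and 4236 and WT 3569 and NT, at 6.10 in KO 2038 and at 7.07 to 8.26 in the others. Among those others, cortex of KO 2221, KO 2620, WT 2236 and WT 2644 also had the striatal marker *Isl1*, described below, above background. Cortex of KO 2037 had *Isl1* with the lower cell cycle level. The part of whatever *Hbb-y* or *Isl1* follows in the spread of the cell cycle genes was not tested.

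Astrocyte markers were higher in 7 of 12 cases and lower in 1, with a median of 0.59 (1.51 over the members above background). *Slc1a2*, the main glial glutamate transporter, ranged from 10.47 over 10.97 to 11.18 in hippocampus and from 8.26 over 8.62 to 8.82 in cortex, 4.97-fold higher without overlap (adjusted p = 7.79e-17, limma). *Gja1* (1.99), *Apoe* (1.83) and *Fgfr3* (1.21) were higher as well, *Aldh1l1* was lower (-1.02), and *Aqp4* and *S100b*, markers of mature astrocytes, were at background in both regions. The radial glia list holds *Aldoc*, *Gfap* and *Id4*, which astrocytes share. Oligodendrocyte lineage markers hardly differed (1 of 9 higher, 3 lower, median -0.10).

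Interneuron genes leaned to cortex, with 14 of 25 lower in hippocampus and 3 higher (median -0.44). *Npy*, neuropeptide Y, ranged from 6.25 over 6.68 to 7.47 in hippocampus and from 8.35 over 9.06 to 9.73 in cortex, 4.81-fold lower in hippocampus without overlap (adjusted p = 8.6e-13, limma). The migration receptor *Ackr3* (-1.60), somatostatin *Sst* (-1.23), *Maf* (-0.99) and the medial eminence factor *Lhx6* (-0.85) were lower with it, while *Sp8* (0.95), *Cck* (0.66) and *Sox6* (0.20) were higher. *Gad1*, a general marker of GABA neurons, did not pass the test (-0.38 ± 0.18, SE; adjusted p = 0.094, limma). With the KO arrays alone 9 members were called lower. The list's mean level moved with *Isl1*, a striatal marker described below: it was 7.22 to 7.45 in the 5 cortical arrays with *Isl1* above background and 6.85 to 7.23 in the other 5, and the 2 hippocampal arrays with *Isl1* were the highest of the 12, at 7.22 and 7.24 against 6.29 to 7.03. Without those 7 arrays 12 members were lower and 2 higher, with a median of -0.35.

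**Figure D4:**
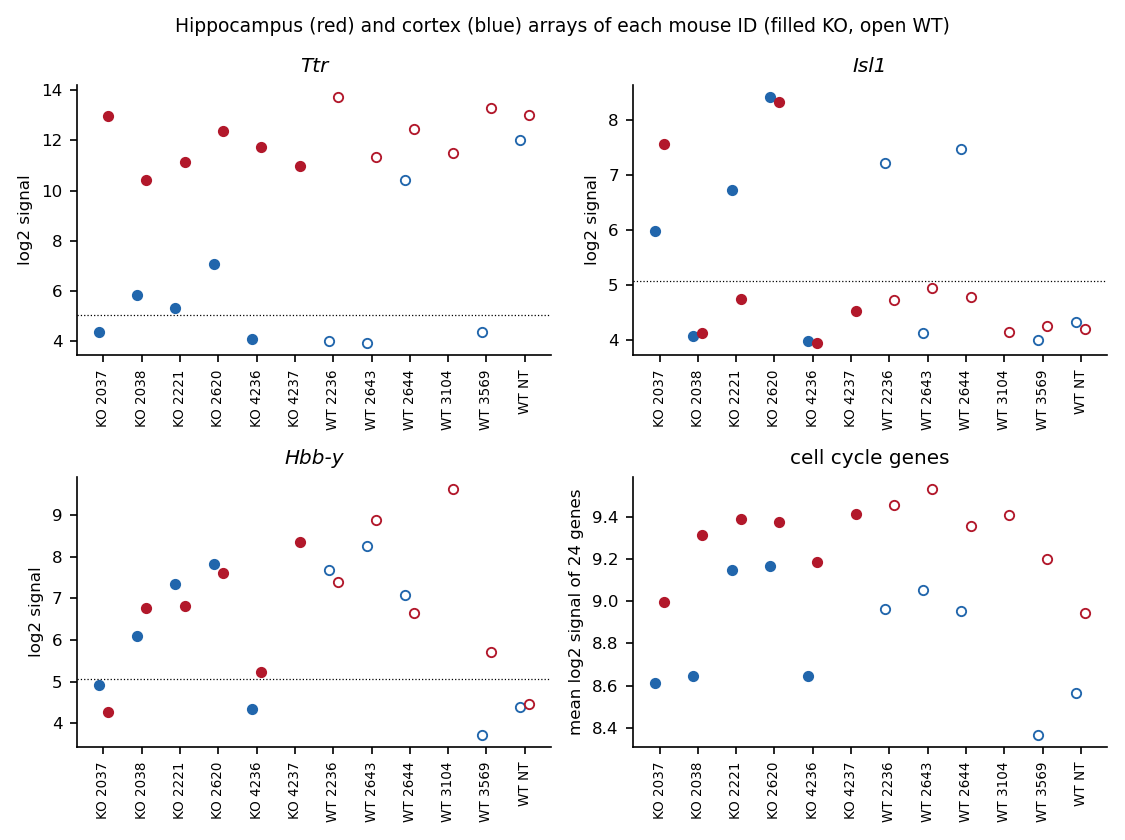
Log2 signal of *Ttr*, *Isl1* and *Hbb-y* and the mean log2 signal of 24 cell cycle genes (vertical axes) by mouse ID (horizontal axis), red for hippocampus, blue for cortex, filled for *Fmr1*KO and open for WT, with a dotted line at background in the single-gene panels. Cortex of WT NT and WT 2644 carries *Ttr* near the hippocampal level, *Isl1* is above background in 5 cortical and 2 hippocampal arrays, and *Hbb-y* is alike in both regions of an ID.

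Markers of tissue that borders the dissected regions varied from array to array. *Ttr*, the transthyretin of choroid plexus epithelium, ranged from 10.44 over 12.05 to 13.74 in hippocampus and from 3.94 over 4.86 to 12.02 in cortex. The regions overlapped through cortex of WT NT (12.02) and WT 2644 (10.43), yet *Otx2* stayed at 3.26 to 4.20 in all 10 cortical arrays. Of 21 choroid plexus markers 16 were higher and 1 lower in hippocampus (median 0.44), and 10 of the 21, among them *Kl* and *Slc4a5*, were at background in both regions. Restricted to probes above background 9 were called higher, and 10 in the KO arrays alone. Without the 2 cortical arrays rich in *Ttr*, 711 genes were called at 2-fold. The list's mean level was 5.12 to 6.25 in hippocampus and 4.28 to 4.99 in cortex.

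Genes of meninges and fibroblasts were higher in 17 of 20 cases and lower in 1 (median 0.48), or 10 after the same restriction. *Dcn*, the fibroblast proteoglycan decorin, ranged from 7.76 over 8.70 to 9.33 in hippocampus and from 4.25 over 5.55 to 6.45 in cortex, 8.87-fold higher without overlap in the probe used, while its other probe was not called (adjusted p = 4.24e-13, limma). *Cyp1b1*, an enzyme of meningeal and vascular cells, was at least 4.97-fold higher. The list's mean level was 5.41 to 6.26 in hippocampus and 4.8 to 5.07 in cortex. Microglia markers were higher in 12 of 14 cases and lower in 0 (median 0.61), with a mean level of 5.80 to 6.49 against 5.38 to 5.66. *C1qb*, a complement subunit made by microglia, ranged from 5.6 over 6.25 to 6.77 in hippocampus and from 4.66 over 4.92 to 5.54 in cortex, at least 2.21-fold apart (adjusted p = 3.47e-09, limma).

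Vessel genes moved less. Endothelial markers were higher in 7 of 15 cases and lower in 1 (median 0.17), with *Kdr* (0.81) the largest and *Pecam1* and *Tie1* at background, and pericyte markers were higher in 4 of 12 and lower in 2 (median 0.14). Red blood cell genes did not differ as a list, with 1 of 8 higher, 1 lower and hippocampus ahead in 4 of 10 pairs. Thalamic and diencephalic markers were higher in 5 of 17 cases and lower in 1 (median 0.04). The higher ones included *Lhx9* and *Calb2*, which other lists here share, while the defining thalamic factors *Gbx2*, *Shox2* and *Olig3* were at background in both regions. Multiciliated cell genes were higher in 10 of 21 cases and lower in 1, among them the master factor *Foxj1* (0.75 ± 0.06, SE). Called in either direction were 53.3% of the endothelial, 50% of the pericyte and 52.4% of the multiciliated genes, near the 49.7% of all genes. For the thalamic list it was 35.3% and for red blood cell genes 25%. What share of the regional differences these neighbouring cells carry was not tested.

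Striatal markers were lower in hippocampus in 7 of 17 cases and higher in 1 (median -0.16), and the list's mean level was 5.61 to 6.69 in cortex and 5.43 to 5.99 in hippocampus. Called in either direction were 47.1% of them, under the 49.7% of all genes. *Isl1*, a factor of striatal and cholinergic precursors that pallial neurons lack, was above background in cortex of KO 2037 (5.97), KO 2221 (6.72), KO 2620 (8.42), WT 2236 (7.21) and WT 2644 (7.48) and in hippocampus of KO 2037 (7.55) and KO 2620 (8.32). It did not pass the regional test (-0.57 ± 0.49, SE; adjusted p = 0.374, limma). Without those 7 arrays the median of the striatal list was 0.01, with 5 members lower and 4 higher, and 816 genes were called at 2-fold. *Drd1*, the dopamine D1 receptor (chromosome 13, 54051183 to 54055658), ranged from 5.12 over 5.54 to 5.79 in hippocampus and from 7.88 over 8.09 to 8.54 in cortex in arrays with and without *Isl1* alike. It was 6.16-fold lower in hippocampus without overlap (adjusted p = 2.53e-18, limma), and *Meis2* (-1.64) and *Ppp1r1b* (-1.17) were lower too.

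Guidance molecules were divided between the regions gene by gene. Of 24 ligands 10 were higher and 10 lower (median 0.05), and of 26 receptors 12 were higher and 9 lower (median 0.12). *Slit2*, a repellent for Robo-bearing axons, ranged from 9.68 over 9.96 to 10.33 in hippocampus and from 6.95 over 8.19 to 8.53 in cortex, 3.7-fold higher (adjusted p = 3.67e-11, limma). *Robo2*, a Slit receptor, ran the opposite way, at 3.72 to 4.33 (median 4.24) in hippocampus, all at background, and 5.48 to 6.93 (median 6.12) in cortex, at least 2.12-fold lower (adjusted p = 4e-13, limma), and *Robo1* was lower with it (-1.15). Both *Slit2* and *Robo2* were without overlap.

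Semaphorins and their receptors also stood on both sides. *Nrp2*, a neuropilin that binds class 3 semaphorins, ranged from 10.68 over 10.88 to 11.40 in hippocampus and from 7.20 over 9.11 to 9.52 in cortex, 4.54-fold higher (adjusted p = 4.76e-10, limma). *Sema3a*, a class 3 semaphorin, ranged from 6.57 over 7.17 to 7.71 in hippocampus and from 8.69 over 8.94 to 9.16 in cortex, 3.42-fold lower (adjusted p = 8.16e-14, limma), whereas *Sema3c* (1.26) and *Sema3e* (1.07) were higher. The netrin *Ntn1* (1.83), its receptor *Dcc* (1.01) and *Ephb3* (1.4) were higher, and *Efnb2* (-1.39), *Epha3* (-1.24) and *Plxna4* (-1.11) were lower.

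Cadherins and protocadherins, adhesion molecules that sort neurons by region, leaned to cortex, with 13 of 22 lower in hippocampus and 2 higher (median -0.41). *Cdh6* ranged from 5.51 over 5.78 to 6.04 in hippocampus and from 7.88 over 7.95 to 8.19 in cortex, 4.61-fold lower (adjusted p = 7.11e-19, limma). *Cdh13* (-2.01), *Pcdh9* (-1.67) and *Pcdh10* (-1.51) were lower with it. *Pcdh20* was the large exception, at 8.87 to 9.57 (median 9.39) in hippocampus and 6.78 to 7.77 (median 7.22) in cortex, 4.27-fold higher (adjusted p = 1.32e-15, limma). Neither *Cdh6* nor *Pcdh20* overlapped between regions.

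Transmitter receptors changed by subunit. Glutamate receptor genes were lower in 12 of 20 cases and higher in 5 (median -0.27). *Grik3*, a kainate receptor subunit, ranged from 6.43 over 7.10 to 7.93 in hippocampus and from 8.68 over 8.77 to 8.95 in cortex, 2.99-fold lower, with 1 of its 2 probes called (adjusted p = 1.27e-10, limma). *Grin2b* (-1.32), *Gria3* (-1.22) and *Grm5* (-0.84) were lower, and *Grik4* (1.0), *Grm7* (0.85) and *Gria1* (0.49) were higher. GABA receptor genes were higher in 4 of 10 cases and lower in 4. *Gabra4* ranged from 8.50 over 8.64 to 8.88 in hippocampus and from 6.64 over 7.01 to 7.55 in cortex, 2.96-fold higher without overlap (adjusted p = 4.48e-14, limma), along with *Gabra2* (1.27), while *Gabrb2* (-1.33) and *Gabra3* (-1.25) were lower. Synapse genes were lower in 14 of 21 cases and higher in 2 (median -0.33), from *Lrrtm2* (-1.26) to *Vamp2* (-0.29), with *Syn2* (1.0) the exception.

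Retinoid genes were called in 9 of 16 cases (56.2%, beside 49.7% of all genes), 6 higher and 3 lower (median 0.04). *Crabp1*, a retinoic acid binding protein, ranged from 5.57 over 6.75 to 7.08 in hippocampus and from 3.72 over 4.07 to 4.47 in cortex, at least 2.91-fold higher (adjusted p = 5.19e-13, limma). *Cyp26b1*, which degrades retinoic acid, ranged from 7.39 over 8.51 to 9.10 in hippocampus and from 5.73 over 6.31 to 6.99 in cortex, 4.13-fold higher (adjusted p = 2.07e-09, limma). Both genes were without overlap. Of 27 genes of the FGF and hedgehog pathways 11 were higher and 6 lower (median 0.09): the receptors *Fgfr1* (1.54), *Fgfr3* (1.21) and *Smo* (1.22) were higher, and the feedback genes *Spry2* and *Dusp6* (both -0.75) were lower, though *Spry1* was higher (1.22). Immediate early genes were called in 6 of 14 cases (42.9%), under the share of all genes, *Ier2* (1.02) and *Fos* (0.92) the largest of the 4 higher.

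Among the 10 genes with the largest differences in each direction were several outside these lists. *Tac2*, the neurokinin B precursor (chromosome 10, 127724478 to 127731768), ranged from 8.26 over 8.91 to 9.25 in hippocampus and from 4.70 over 4.93 to 5.39 in cortex, at least 12.9-fold higher (adjusted p = 9.46e-19, limma). *Tafa2*, a secreted brain protein (chromosome 10, 123264024 to 123741204), ranged from 5.11 over 6.20 to 7.20 in hippocampus and from 9.36 over 9.73 to 10.61 in cortex, 12.6-fold lower in hippocampus (adjusted p = 1.17e-13, limma). The regions did not overlap for either. *Cnmd* (at least 8.05-fold), *Rerg* (at least 4.52-fold), *Thrsp* (13.1-fold) and *Tesc* (13.1-fold) were higher, and *Lratd1* (9.26-fold), *Tox* (at least 6.4-fold) and *Gucy1a1* (7.99-fold), a subunit of soluble guanylate cyclase, were lower in hippocampus.

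The regional difference was compared between genotypes, to ask whether loss of *Fmr1* altered it. No gene had a regional difference that depended on genotype at an adjusted p under 0.05 (0 of 18194, 0%; smallest adjusted p = 0.591, limma), and 610 genes (3.35%) did so at an unadjusted p under 0.05. All 689 genes with a 2-fold difference had the same sign in *Fmr1*KO and in WT, with a median gap between the genotypes of 0.09 and the largest, 1.4, in the collagen *Col3a1*. Those genes were chosen on the arrays of both genotypes together, so the shared sign is largely set by that choice. *Rorb* differed by -3.24 in KO and -3.25 in WT, *Prox1* by 3.85 and 3.81, and *Axin2* by 1.96 and 2.13. That no gene passed does not show that the regional differences are equal.

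Neurons cultured from the same regions, 14 days in vitro, were set beside the tissue, to ask which regional differences were also read there. The regional difference itself changed between tissue and culture for 6105 genes (33.6%; limma over 42 arrays, adjusted p under 0.05), and in culture 5432 genes (29.9%) were called, 2830 (15.6%) higher and 2602 (14.3%) lower in hippocampus. Of the 448 genes higher at 2-fold in hippocampal tissue, 193 (43.1%) were called higher and 44 (9.82%) lower in hippocampal cultures, and their median difference was 1.43 in tissue and 0.24 in culture. Of the 241 lower ones, 132 (54.8%) were called lower and 29 (12%) higher, with medians of -1.37 and -0.50. Both sets were chosen for large differences in tissue, so smaller differences in culture partly follow from that choice.

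**Figure D5:**
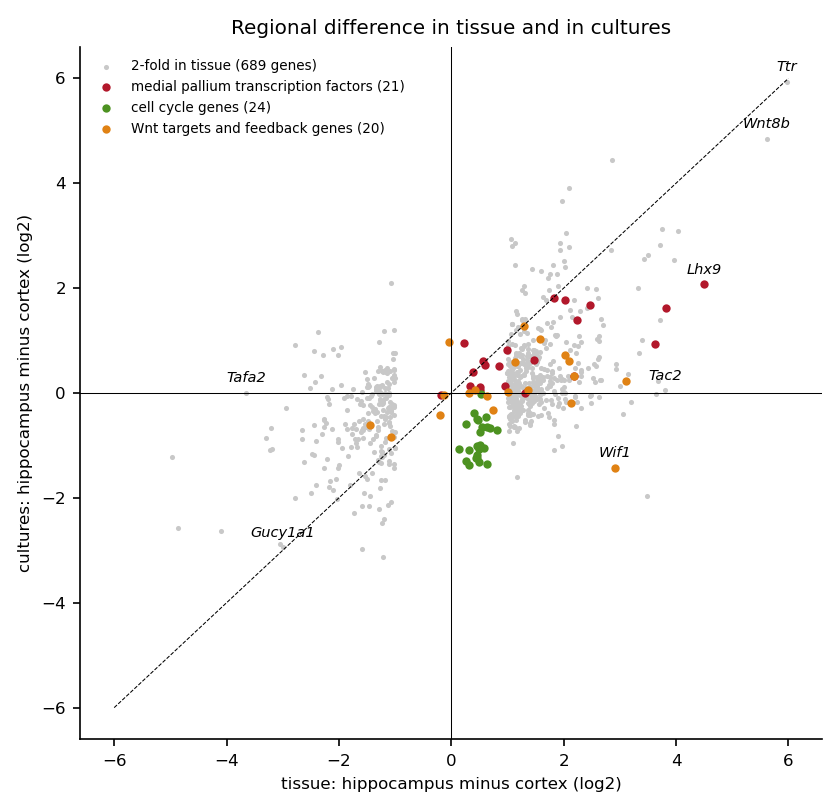
Difference between hippocampus and cortex in cultures (log2, vertical axis) against that in tissue (log2, horizontal axis) for the 689 genes called at 2-fold in tissue (grey) and for all measured members of 3 lists (colour), with a dashed line of equal difference. Medial pallium factors lie mostly right of and above 0. Wnt targets have a culture median near 0, with 7 of 20 called higher and 4 lower in culture. All but 1 of the 24 cell cycle genes were called lower in hippocampal cultures while all were higher in tissue.

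The medial pallium factors kept a regional difference in culture in 15 of 21 cases, all 15 higher (median 0.61), whereas 12 of the 21 differed from tissue in its size. All 21 had the same sign in culture, and 18 were smaller there. *Zbtb20* read 2.03 in tissue and 1.77 in culture and *Emx2* 2.23 and 1.39. With signals raised to background, *Prox1* read 3.66 in tissue and 0.80 in culture and *Lhx9* 4.43 and 0.60. The field marker *Neurod1* read 2.04 and 3.05. Wnt targets had a culture median of 0.04 against 1.08 in tissue, though 7 of 20 were called higher and 4 lower in culture. Between the preparations 15 of 20 differed, or 13 with signals raised to background. *Axin2* read 2.02 in tissue and 0.72 in culture, and *Sp5* and *Wif1* were on average at background in both regions of the cultures. Among hem ligands *Wnt5a* kept part of its difference (1.02), *Wnt8b* read 4.38 in tissue and 3.71 in culture with signals raised to background, and *Rspo1* was at background in both regions of the cultures.

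Of 14 upper-layer genes called in tissue, 9 had the same sign and a smaller difference in culture (6 of them differing between the preparations), 3 the same sign and a larger one, and 2 the opposite sign. Of 20 deep-layer genes these counts were 9 (5 of them differing), 6 and 5. *Rorb* read -3.23 in tissue and -1.09 in culture, *Foxp2* -2.48 and -1.16, and *Mef2c* -2.78 and -1.99. *Drd1* (-2.62 against 0.35), *Tafa2* (-3.65 against 0.01) and *Tac2*, at background in both regions of the cultures, were called in tissue and not in culture, and all 3 differed between the preparations. *Gucy1a1* (-3.00 against -2.95) and *Rerg* (2.17 against 2.06 with signals raised to background) did not pass that test. Cell cycle genes reversed as a list, with 23 of 24 lower in hippocampal cultures, a median of -1.0, and a regional difference that depended on the preparation for all 24 (*Mki67*: 0.49 in tissue, -1.31 in culture). Cultures select for neurons and were read weeks later than the tissue, so preparation, age and cell make-up cannot be told apart here.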

How the data were processed

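The authors deposited log2 signals that they had made with robust multi-array averaging (RMA), for 45101 probes on 42 arrays, which normalizes all arrays together and compresses low signals. Groups came from the labels. After 64 control probes were left out, limma 3.58.1 (R 4.3.3) was fitted to the 22 tissue arrays with region and genotype as terms and mouse ID as a random block (correlation 0.305), and p-values were adjusted over 45037 probes by Benjamini-Hochberg. Deviations of hippocampus and cortex with the same ID correlated at 0.248 to 0.519 (other IDs: -0.04 on average), so the ID was taken to pair arrays. A gene was its brightest probe, by platform annotation (34945 probes with 1 gene, 932 with several, 9160 with none). The named genes were the 10 largest differences in each direction with 1 sign in all 10 pairs, and the described members of 35 lists (641 of 682 entries measured). Members and lists were chosen with earlier results of these data known. Region by genotype and by preparation were contrasts of group means, and the code was tested on simulated data. The number of arrays limits the precision, and p-values measure the spread between pools of littermates. Alternatives changed the block, genotypes, scaling, background filter, probe rule, variance model or arrays, with 3 settings chosen after seeing the data, without arrays rich in *Ttr*, without those with *Isl1*, and with signals below background raised to it.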

Additional observations from a re-analysis of the deposited data

Results flagged for a closer look

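Of 63 genes checked in the 10 cortical arrays, 2 had a cortical array far from the others of its group, both in cortex of KO 2038: *Wnt8b* at 5.199 and *Sp5* at 5.002. The *Sp5* value lies below the background of 5.06. The 12 hippocampal arrays were not checked in this way. Chance alone gives such a flag in about 5% of groups, and 2 of 63 genes are no more than that share. The mean level of the hem ligands was also highest among cortical arrays in KO 2038, at 5.94 against a lowest of 5.62. That list holds *Wnt8b* itself, so its level is not a separate observation.

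Over all genes 33.6% had a regional difference that depended on the preparation. The regional difference depended on it for 15 of the 20 genes with the 10 largest tissue differences in each direction (limma, adjusted p under 0.05 for the difference itself). As the difference in tissue minus that in culture, on the log2 scale, it was 2.437 for *Lhx9*, 0.9759 for *Cnmd*, 1.437 for *Gm3515*, 2.198 for *Prox1*, 3.758 for *Tac2*, 0.9115 for *Thrsp* and 2.342 for *Tesc*. For the genes lower in hippocampus it was -3.78 for *9130024F11Rik*, -2.317 for *Sla*, -1.515 for *Pou3f1*, -3.695 for *Tafa2*, -2.465 for *Tox*, -2.154 for *Rorb*, -2.567 for *Lratd1* and -2.146 for *Tshz3*. The genes were chosen for large differences in tissue, so smaller ones in culture partly follow from that choice. Several of these values rest on a group at background. With signals raised to background 14 of the 15 passed the test again, each with a smaller difference in culture, and *Cnmd* did not, at 3.0 in tissue and 2.74 in culture (adjusted p = 0.52, limma). The difference of differences was then 3.83 for *Lhx9*, 1.71 for *Gm3515*, 2.87 for *Prox1*, 3.70 for *Tac2*, -3.83 for *9130024F11Rik* and -2.53 for *Tox*. Of the cell cycle genes, 24 of 24 had a regional difference that depended on the preparation.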

How the results depend on the processing

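The number of genes called was 9045, with 689 at 2-fold, and stayed within 1.5 times of these under each alternative run. Without the replicate block the counts were 7964 and 706, and with it as a fixed term over 10 pairs 8544 and 670. Single genes were followed for a set of 157, the 10 largest differences in each direction and the list members called at 2-fold. The block changed no call among them. The genes called were fewest in the WT arrays alone (6287) and most with the probe of smallest p (10363). Those at 2-fold were fewest with signals below background raised to it (616) and most without the arrays with *Isl1* (816). With 1 array left out the counts were 8697 to 9067 (670 to 723 at 2-fold). Centring each array on its median gave 4258 higher and 5135 lower genes. Region by genotype gave 0 genes in each setting, and region by preparation 5824 to 7386, or 5431 to 6233 with all arrays of 1 mouse ID left out. None of the 157 genes changed direction, and 3 lost their call in 1 genotype alone: *Tac1* (KO, -0.97, adjusted p = 0.0615), *Nts* (WT, -1.96, adjusted p = 0.065) and *Cldn1* (WT, -0.93, adjusted p = 0.0782, all limma). The set was chosen for large differences on these arrays, so a kept direction largely follows from that choice. Smaller differences named above, such as that of *Wnt7b*, were not followed gene by gene. The 35 list medians gave 455 values over the alternatives that left out no single array, of which 27 moved by more than the SD between pairs: 12 over probes above background, 9 with signals raised to it, 4 without the arrays with *Isl1*, 1 in the KO arrays and 1 with the probe of smallest p. The largest move was in astrocyte markers (0.59 to 1.51 over probes above background). In 5 of the 27 the sign changed, in medians near 0: GABA receptors (-0.01 to 0.50 and 0.46 in the 2 background settings), guidance ligands (0.05 to -0.03 in both) and immediate early genes (to 0.18). Within that SD, the striatal median changed from -0.16 to 0.01 without the arrays with *Isl1*. Counts of list members moved over 1.5 times in 89 of 910 cases, 80 of them counts of 4 or fewer. The other 9 were choroid plexus higher (16 to 9 in both background settings, 10 in KO), meninges higher (17 to 10 in both), subplate lower (5 to 3 in both), interneuron lower (14 to 9 in KO) and glutamate receptors higher (5 to 3 in WT). With 1 array left out no list median moved beyond the SD, and 38 of 1540 counts moved over 1.5 times, by 1 member each. Low signals limit the choroid plexus and meninges lists most.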
